A study of Rattus norvegicus with 15 samples.

Results

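The core circadian clock of the inferior colliculus (IC) was followed through 10 genes, namely *Clock*, *Bmal1* (also written *Arntl*), *Per1*, *Per2*, *Per3*, *Cry1*, *Cry2*, *Nr1d1*, *Nr1d2* and *Dbp*. They were chosen by name as the genes of the transcriptional loop, and each was read by the brightest probe set that the platform annotation gives to its symbol. All 10 were found, each with 1 probe set, among 14506 genes measured under 1 name.

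The IC is the midbrain auditory nucleus in which seizures evoked by loud sound begin. In the daily clock, the transcription factors CLOCK and BMAL1 bind as a pair and activate the *Per* and *Cry* genes, whose proteins return to the nucleus and repress the pair. The same pair activates *Nr1d1* and *Nr1d2*, which encode the REV-ERB repressors of *Bmal1*, and *Dbp*, which encodes a factor that adds to *Per* transcription. The *Bmal1* transcript and those of *Dbp* and the *Per* genes therefore peak at nearly opposite times of day, in many brain areas as well as in the master clock of the hypothalamus. *Per1*, and to a lesser degree *Per2*, is also induced by neuronal activity and by glucocorticoid hormone.

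RNA of male rats 12 weeks old was hybridized to Affymetrix rat gene arrays, 1 array per sample, in 4 groups. The Wistar audiogenic rat (WAR), bred for seizures in response to sound, gave 5 arrays after acoustic stimulation (WAR S) and 4 without it (WAR N, naïve). Wistar rats, the parent stock, gave 2 arrays after the same stimulation (Wistar S) and 4 without it (Wistar N), and stimulated rats were sampled 60 min after the sound. The labels of the samples set the groups, although the design text speaks of stimulated rats only and the methods give other numbers of stimulated rats, with no naïve rats, for these arrays. The sources used here do not state the hour of the day at which each rat was sampled. A difference of strain and a difference in the hour of sampling therefore cannot be told apart.

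The values are log2 intensities, so that a difference of 1 is a doubling. Any pair of stimulated arrays (21 pairs) shared 2675 to 3286 identical probe set values, and any naïve pair (28) shared 2 to 13. No mixed pair (56) shared any, so the stimulated and the naïve arrays appear to have been normalized apart. Strains are compared inside one or the other, and the interaction sets the 2 strain differences against each other. The limma model, however, takes 1 spread per gene from all 15 arrays. The median SD of all genes was 0.20 in Wistar N, 0.13 in WAR N, 0.095 in WAR S and 0.045 in Wistar S. Fits of the compared groups alone are therefore given as well. Wistar N replicate 1 stood apart. It was the array farthest from the group median for 50.8% of all genes, and on the first principal component of the naïve arrays (62.8% of the variance) it lay at −23.2, close to WAR N (−22.7 to −12.7), while the other Wistar N arrays lay at 31.999 to 36.9. Over the 60 genes that passed the test between WAR S and Wistar S, its mean of the higher genes minus the lower ones was −0.10, with −0.20 to −0.15 in the other Wistar N arrays and 0.78 to 1.08 in WAR N, as its label has it. Values without this array follow the naïve results. Markers of IC neurons were bright, with *Tfap2d* at percentile 96.3 and *Slc17a6* at percentile 97.0 of the mean levels of all genes, while *Barhl1* and *Pou4f1* were intermediate at 52.4 and 41.9. Of the cerebellar markers, *Neurod1* (percentile 12.1), *Gabra6* (15.3) and *Pcp2* (32.6) were dim, while *Cbln3*, *Zic1*, *Cbln1* and *Car8* lay at 43.1 to 44.4, as high as *Pou4f1*, and the 5 choroid plexus markers lay between 15.0 (*Kcnj13*) and 36.8 (*Folr1*). Among the clock genes, mean levels ran from percentile 47.4 (*Cry1*) to 96.4 (*Dbp*), where probe sets differ in brightness for reasons other than RNA amount.

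*Bmal1* and *Per2* stand on opposite sides of the loop and differed between the naïve strains in opposite directions, so the 250 bases before the annotated start of each are shown, from RefSeq on the GRCr8 assembly, 5′ to 3′ on the strand of the gene. *Per2* lies at chr9:99496994-99497243 on the minus strand, and *Bmal1* at chr1:176766078-176766327 on the plus strand. Capitals mark matches to the letters searched on both strands, CACGTG (E-box) and CACGTT (a variant of it), which CLOCK and BMAL1 bind, TTATGTAA or TTATGCAA or TTACGTAA or TTACGCAA (D-box), which DBP binds, TAGGTCA and TGGGTCA (the RRE), which REV-ERB proteins bind, and TGACGTCA (CRE), which the activity-regulated factor CREB binds.
Per2: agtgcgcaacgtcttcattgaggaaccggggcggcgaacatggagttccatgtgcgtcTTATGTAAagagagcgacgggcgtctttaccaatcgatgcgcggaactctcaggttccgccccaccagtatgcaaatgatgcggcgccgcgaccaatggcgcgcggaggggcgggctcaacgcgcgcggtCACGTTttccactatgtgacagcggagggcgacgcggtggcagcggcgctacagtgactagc
Bmal1: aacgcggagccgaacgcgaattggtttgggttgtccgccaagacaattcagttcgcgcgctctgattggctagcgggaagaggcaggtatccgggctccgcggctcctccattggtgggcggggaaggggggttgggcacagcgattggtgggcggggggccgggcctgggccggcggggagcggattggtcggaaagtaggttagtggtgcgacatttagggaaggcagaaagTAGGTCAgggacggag
The *Per2* window held TTATGTAA at 192 to 185 bases and CACGTT at 62 to 57 bases before the start, and the *Bmal1* window held TAGGTCA at 16 to 10 bases before the start. Of 27457 rat windows of this length, 0.816% held TTATGTAA, 4.14% held CACGTT and 2.26% held TAGGTCA. Windows were given for 9 of the 10 genes, all but *Cry1*. Among the other 7, only *Cry2* (212 to 207 bases before the start) and *Nr1d1* (174 to 169) held any of these letters, CACGTT in both. None of the 9 windows held CACGTG or TGGGTCA or TGACGTCA or the other D-box forms, which 5.79%, 3.38%, 1.7% and at most 0.736% of all windows held. These are matches of letters only, and the windows of *Per1* and *Per3* begin at an internal start of the gene.

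The first question was whether the clock genes differ between the strains without sound. In naïve rats 7 of the 10 clock genes passed an adjusted p of 0.05 in limma, 4 higher in WAR N (*Per3*, *Per2*, *Clock* and *Nr1d2*) and 3 lower (*Bmal1*, *Cry1* and *Cry2*). Among all genes 20.9% passed, 11.6% higher and 9.38% lower. The members were chosen by name, but with earlier results of these data known. *Per3* had the largest difference, 0.89 on the log2 scale or 1.85-fold, and no clock gene reached a fold of 2 (1.76% of all genes did so with an unadjusted p of at most 0.05). In 4 of the 10 genes (*Per3*, *Clock*, *Bmal1* and *Cry2*) the arrays of the strains did not overlap, against 13.4% of all genes. The median difference of the 10 genes was 0.29, beside 0.023 over all genes.

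**Figure D1:**
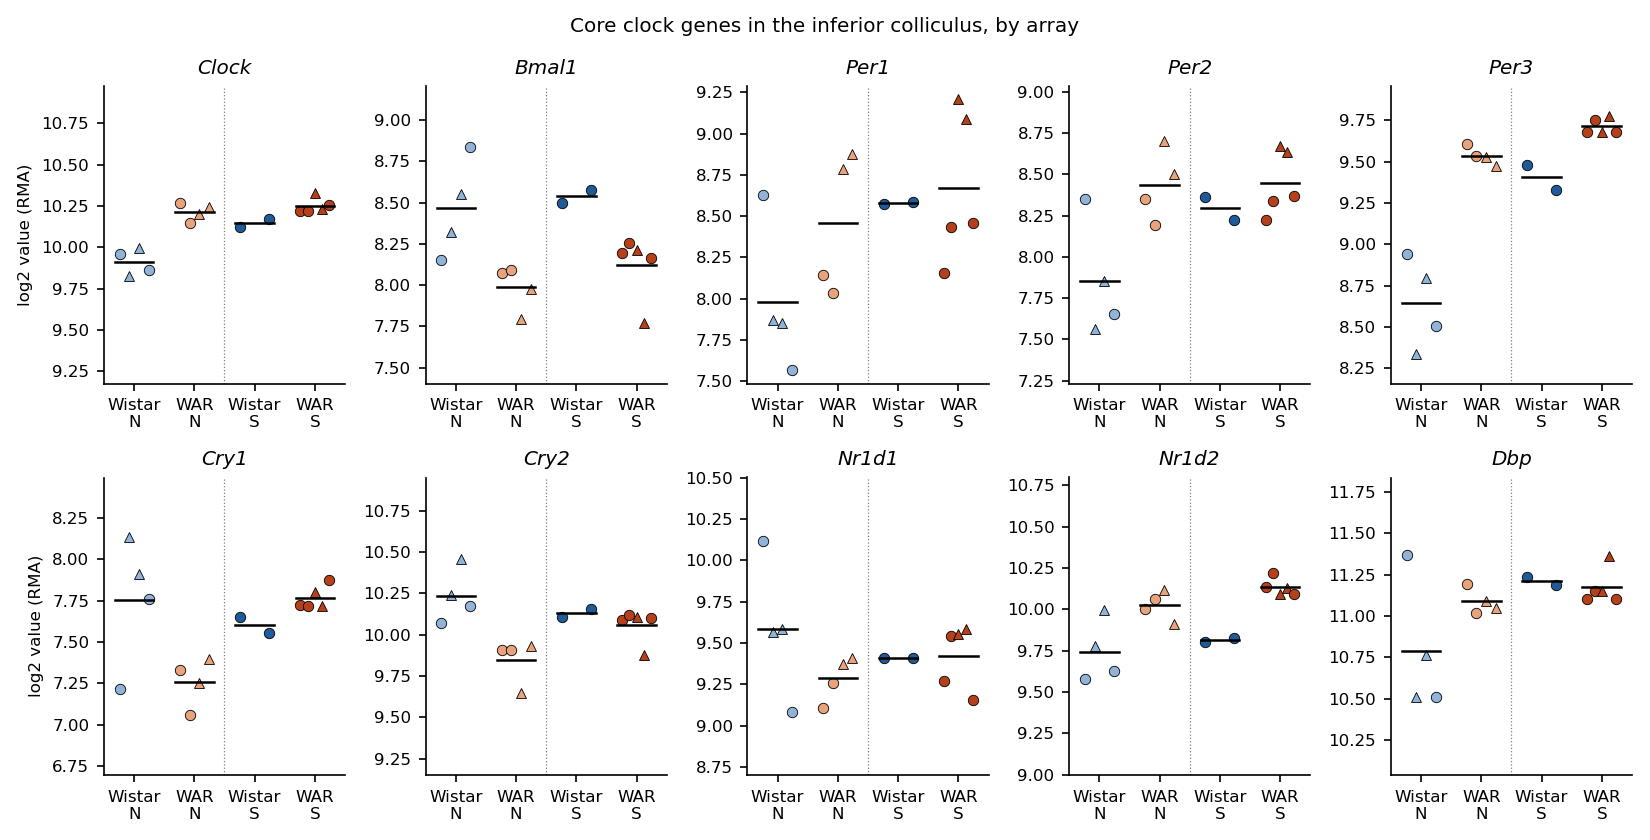
Log2 value (vertical axis) of each clock gene in every array, by group on the horizontal axis, with a bar at the group mean; circles are arrays of label set 1 and triangles of label set 2, and every panel spans the same range. Left of the dotted line are naïve and right of it stimulated arrays, which were normalized separately. WAR N lies wholly above Wistar N for *Per3* and *Clock* and wholly below it for *Bmal1* and *Cry2*.

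The activators moved apart. *Clock* (probe set 10772249) had log2 values of 9.96, 9.82, 9.99 and 9.86 in Wistar N replicates 1 to 4, and of 10.27, 10.15, 10.20 and 10.24 in WAR N. All WAR N arrays lay above all Wistar N arrays, a narrow difference of 0.30 (standard error 0.058, adjusted p = 0.00338 from limma). *Bmal1* (probe set 10710028), the partner of *Clock*, had values of 8.15, 8.32, 8.55 and 8.84 in Wistar N and of 8.08, 8.09, 7.80 and 7.98 in WAR N. Here the order was the opposite, with every WAR N array below every Wistar N array, although Wistar N replicate 1 lay only just above the highest WAR N array. The difference was −0.48 (standard error 0.14, adjusted p = 0.0249 from limma).

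The 3 *Per* genes encode the proteins that, with the cryptochromes, close the loop. *Per3* (probe set 10881861) read 8.94, 8.34, 8.79 and 8.51 in Wistar N and 9.61, 9.53, 9.53 and 9.47 in WAR N. The 4 WAR N arrays were nearly equal and lay above all Wistar N arrays, which were more widely spread. The difference of 0.89 (standard error 0.11, 95% confidence interval 0.66 to 1.11) had an adjusted p of 0.000310 in limma and ranked 32 by p of the 14506 genes. A 2-sided exact permutation test of this gene alone gave p = 0.0286, the smallest that 70 splits of 4 against 4 arrays allow.

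*Per2* (probe set 10929842) read 8.35, 7.56, 7.85 and 7.66 in Wistar N and 8.35, 8.19, 8.70 and 8.50 in WAR N. Wistar N replicate 1 lay inside the range of WAR N, and the other Wistar N arrays lay below it. The difference was 0.58 (standard error 0.16, adjusted p = 0.0208 from limma). *Per1* (probe set 10734882) read 8.63, 7.87, 7.85 and 7.57 in Wistar N and 8.15, 8.04, 8.78 and 8.87 in WAR N. Both groups were split, with 1 high Wistar N array and a high and a low pair in WAR N, and the difference of 0.48 (standard error 0.27, 95% confidence interval −0.10 to 1.06) did not pass (adjusted p = 0.230 from limma).

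Both cryptochrome genes, whose proteins are the main repressors of CLOCK and BMAL1, were lower in WAR N. *Cry1* (probe set 10894525) read 7.21, 8.13, 7.91 and 7.76 in Wistar N and 7.33, 7.06, 7.25 and 7.39 in WAR N. The groups overlapped only through Wistar N replicate 1, and the difference was −0.50 (standard error 0.15, adjusted p = 0.0284 from limma). *Cry2* (probe set 10847525) read 10.07, 10.24, 10.46 and 10.17 in Wistar N and 9.91, 9.90, 9.65 and 9.93 in WAR N. All WAR N arrays were below all Wistar N arrays, by −0.39 on average (standard error 0.092, adjusted p = 0.00972 from limma).

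The pair of REV-ERB genes differed from each other. *Nr1d2* (probe set 10940575), which encodes REV-ERBβ, read 9.58, 9.78, 9.998 and 9.63 in Wistar N and 10.004, 10.06, 10.12 and 9.91 in WAR N. The highest Wistar N array lay above the lowest WAR N array and below the other 3, and the difference was 0.28 (standard error 0.084, adjusted p = 0.0309 from limma). *Nr1d1* (probe set 10746955), which encodes REV-ERBα, read 10.12, 9.56, 9.58 and 9.08 in Wistar N and 9.11, 9.26, 9.37 and 9.41 in WAR N. Wistar N held both the highest and the lowest array, and the difference of −0.30 (standard error 0.17, 95% confidence interval −0.66 to 0.060) did not pass (adjusted p = 0.226 from limma).

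*Dbp* (probe set 10706953), the output gene with the widest daily swing in many tissues, read 11.37, 10.51, 10.76 and 10.51 in Wistar N and 11.19, 11.02, 11.09 and 11.05 in WAR N. Wistar N replicate 1 was the highest of the 8 arrays and the other 3 Wistar N arrays were the lowest. The difference was 0.30 (standard error 0.15, 95% confidence interval −0.017 to 0.62, adjusted p = 0.169 from limma).

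Wistar N replicate 1 lay outside the range of the other 3 Wistar N arrays in 9 of the 10 clock genes, all but *Clock*, as it did in 71.9% of all genes, and it was the farthest from the group median in 5 of the 10, against the 50.8% of all genes given above. It was above them for *Per1*, *Per2*, *Per3*, *Nr1d1* and *Dbp*, by 0.86, 0.66, 0.40, 0.71 and 0.77 over their mean, and below them for *Bmal1* (−0.42), *Cry1* (−0.72), *Cry2* (−0.22) and *Nr1d2* (−0.22). It thus stood toward WAR N in 7 of these genes, and away from it in *Nr1d1* and *Nr1d2*. In *Per1*, *Per2* and *Cry1* it fell within the WAR N range. Without it, 9 of the 10 genes passed in limma, all but *Nr1d1*, with *Per1* at 0.70 (adjusted p = 0.0376) and *Dbp* at 0.49 (adjusted p = 0.000295), and 5968 of all genes passed in place of 3037. *Per3* was then at 0.99 (adjusted p = 1.36e-06), *Per2* at 0.75, *Clock* at 0.32 and *Nr1d2* at 0.22, and *Bmal1* at −0.58, *Cry1* at −0.68 and *Cry2* at −0.44. The SD of *Dbp* was 5.41 times as large in Wistar N as in WAR N, that of *Per3* 4.96 times and that of *Nr1d1* 3.13 times, and it ran from 1.06 (*Per1*) to 2.68 (*Cry1*) in the other 7 genes, while the median ratio of all genes was 1.54.

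The naïve count changed with the arrays and the model. With only the naïve groups in the model, and so the spread of the naïve arrays alone, 1 clock gene (*Per3*) passed. Without any single one of Wistar N replicates 2, 3 and 4 the count was 4, and 3 without WAR N replicate 3. Counts over all genes are not given for these fits, so a change particular to the clock genes cannot be read from them. *Per3* passed in all 19 settings that used an adjusted p, from 1.36e-06 to 0.0449 in limma. *Cry2* passed in 17, *Clock* in 16, *Per2* in 13, *Bmal1* in 11, *Cry1* in 10 and *Nr1d2* in 9 of them.

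Some markers of cell types also differed between the naïve strains. All 7 endothelial markers were higher in WAR N (median difference 0.70), and *Itm2a*, *Pecam1*, *Slco1a4* and *Tek* passed. Their mean level ran from 8.10 to 8.56 in WAR N and was 8.19 in Wistar N replicate 1 and 7.36 to 7.41 in the other Wistar N arrays. In *Per1*, *Per2*, *Per3* and *Dbp*, too, Wistar N replicate 1 and all WAR N arrays were above the other Wistar N arrays. Of 7 astrocyte markers, *Aldh1l1*, *Slc1a3* and *Slc6a11* were lower and none was higher past the threshold, with *Aqp4* at 0.17 and *Slc1a2* at 0.26 (median of the list −0.40, mean level 10.71 to 10.996 among WAR N arrays, 11.06 to 11.36 among Wistar N arrays). Of 8 neuronal markers, *Gad1*, *Slc32a1* and *Slc17a6* were lower and the other 5 did not pass, 4 of them with a positive difference of up to 0.26 (median of the list 0.025, mean level 10.41 to 10.79 among WAR N arrays, 10.68 to 11.05 among Wistar N arrays). Of 5 microglial markers, 4 had a positive difference, and *P2ry12* and *Tmem119* passed as higher. The median of that list was 0.36, and its mean level was 8.63 to 8.75 among WAR N arrays and 8.19 to 8.36 among Wistar N arrays. Of 5 oligodendrocyte markers, 4 had a positive difference, and *Mog* (0.63) passed as higher and *Mag* (−0.58) as lower. *Cbln1* (−0.89) was lower among 7 cerebellar markers, 4 of which had a positive difference. Of 5 markers of IC neurons, *Barhl1* (−0.66) and *Slc17a6*, which is also in the neuronal list, were lower, and 2 had a positive difference. *Hbb* (−0.67) was lower among 2 markers of red blood cells. The part of these cell types in the clock gene differences was not tested, and in bulk tissue fewer cells of a type and less RNA per cell cannot be told apart.

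The second question was whether the strains differ after sound. In the methods, stimulated WAR rats had tonic and clonic seizures and stimulated Wistar rats had none. The sample titles do not record seizures. After sound, and in the interaction, a difference of strain and a difference in seizures therefore cannot be told apart. Between WAR S and Wistar S, 0 of the 10 clock genes passed an adjusted p of 0.05 in limma, where 0.414% of all genes passed (0.214% higher and 0.200% lower), and 3 had an unadjusted p under 0.05 (*Nr1d2*, *Bmal1* and *Per3*), beside 6.85% of all genes. In 5 of the 10 genes (*Per3*, *Cry1*, *Bmal1*, *Clock* and *Nr1d2*) the arrays of the strains did not overlap, against 20.7% of all genes. The median difference of the 10 genes was 0.10, beside 0.010 over all genes. With 2 arrays of Wistar S, the exact permutation test of a single gene has 21 splits and cannot go below p = 0.0476.

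*Nr1d2* read 9.80 and 9.83 in Wistar S and 10.14, 10.22, 10.10, 10.13 and 10.09 in WAR S. The WAR S arrays lay close together and above both Wistar S arrays, by 0.32 (standard error 0.10, adjusted p = 0.301 from limma). *Per3* read 9.48 and 9.33 in Wistar S and 9.68, 9.75, 9.68, 9.78 and 9.68 in WAR S. Again all WAR S arrays were the higher, by 0.31 (standard error 0.12, adjusted p = 0.562 from limma). *Bmal1* read 8.50 and 8.58 in Wistar S and 8.20, 8.26, 8.21, 7.77 and 8.16 in WAR S. All WAR S arrays were the lower, with replicate 4 far below the rest, and the difference was −0.42 (standard error 0.16, adjusted p = 0.533 from limma).

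*Clock* read 10.12 and 10.17 in Wistar S and 10.22, 10.22, 10.33, 10.23 and 10.26 in WAR S, a difference of 0.11 (95% confidence interval −0.041 to 0.25). *Cry1* read 7.65 and 7.56 in Wistar S and 7.72, 7.72, 7.80, 7.72 and 7.88 in WAR S, a difference of 0.17 (95% confidence interval −0.21 to 0.54). In both genes every WAR S array was above both Wistar S arrays by a small margin.

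*Per1* read 8.57 and 8.58 in Wistar S and 8.16, 8.43, 9.21, 9.09 and 8.46 in WAR S. The Wistar S arrays fell between 3 lower and 2 higher WAR S arrays. The difference was 0.091 (95% confidence interval −0.60 to 0.78), and it turned to −0.014 without WAR S replicate 4 and to −0.044 without WAR S replicate 3. *Per2* read 8.36 and 8.22 in Wistar S and 8.22, 8.34, 8.67, 8.64 and 8.37 in WAR S, with the same pair of WAR S arrays highest and a difference of 0.15 (95% confidence interval −0.26 to 0.56).

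The other genes overlapped. *Cry2* read 10.11 and 10.16 in Wistar S and 10.09, 10.12, 10.11, 9.88 and 10.10 in WAR S, a difference of −0.074 (95% confidence interval −0.31 to 0.16). *Nr1d1* read 9.41 in both Wistar S arrays and 9.27, 9.54, 9.55, 9.59 and 9.16 in WAR S, a difference of 0.016 (95% confidence interval −0.41 to 0.44). *Dbp* read 11.23 and 11.19 in Wistar S and 11.10, 11.15, 11.15, 11.36 and 11.10 in WAR S, a difference of −0.036 (95% confidence interval −0.41 to 0.34). These intervals leave room for differences in either direction, and the misses of the threshold do not show that the strains were alike.

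With only the stimulated groups in the model *Per3* and *Nr1d2* passed (adjusted p = 0.0487 and 0.0256 from limma) and 274 of all genes in place of 60, and with array weights *Per3*, *Nr1d2* and *Bmal1* passed, beside 1433 of all genes. After sound as well, all 7 endothelial markers were higher in WAR (median 0.75, mean level 8.21 to 8.70 among WAR S arrays, 7.54 to 7.63 among Wistar S arrays), with *Itm2a* and *Tek* passing, and all 7 astrocyte markers had lower means (median −0.28, mean level 10.96 to 11.22 in WAR S and 11.46 to 11.48 in Wistar S), with none passing. Of the other markers, *P2ry12* of microglia (0.89, adjusted p = 0.000486 from limma) was higher in WAR S. Only 2 of the 5 microglial markers had a positive difference (median of the list −0.037). *Hbb* of red blood cells (−1.17, adjusted p = 0.0212 from limma) was lower in WAR S. *Ttr* (−0.89), *Kcnj13* (−0.56) and *Gabra6* (−0.68) did not pass (adjusted p = 0.301, 0.0734 and 0.0756 from limma). Their part in the clock gene values was not tested.

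**Figure D2:**
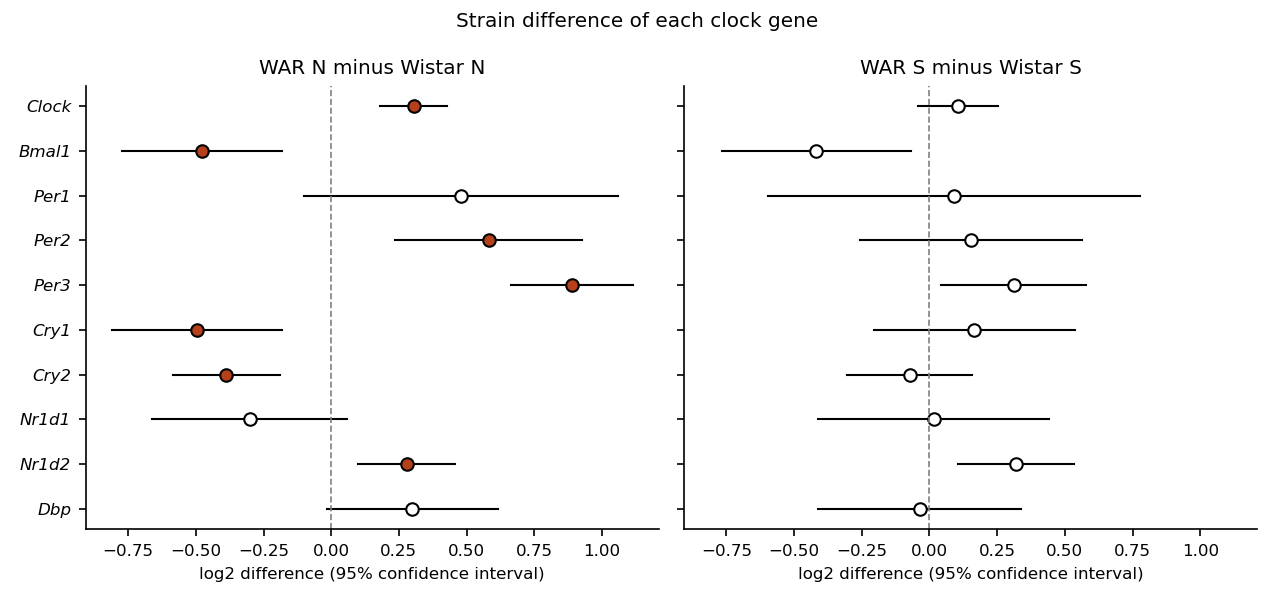
Log2 difference between the strains (horizontal axis) for each clock gene, WAR N minus Wistar N on the left and WAR S minus Wistar S on the right; points are limma estimates, lines 95% confidence intervals, and filled points passed an adjusted p of 0.05. Among naïve arrays 7 points are filled and among stimulated arrays 0, and *Per3* runs from 0.89 on the left to 0.31 on the right.

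A gene past the threshold without sound and not after it is not shown to differ between the 2 settings, so the difference between the strain effects was tested as an interaction. For 0 of the 10 genes did it pass in limma, where 0.103% of all genes passed (0.0620% with a positive and 0.0414% with a negative difference), and 4 had an unadjusted p under 0.05, beside 15.0% of all genes. The strain difference after sound minus that without it was −0.58 for *Per3* (standard error 0.16, adjusted p = 0.135), 0.66 for *Cry1* (standard error 0.23, adjusted p = 0.202), 0.31 for *Cry2* (adjusted p = 0.316) and −0.20 for *Clock* (adjusted p = 0.316). For *Bmal1* it was 0.059 (95% confidence interval −0.40 to 0.52) and for *Nr1d2* 0.041 (95% confidence interval −0.24 to 0.32), so in these genes the estimated strain difference was nearly the same with and without sound. Without Wistar N replicate 1 the interaction passed in limma for 4 genes, *Per3* (−0.68, adjusted p = 0.00264), *Cry1* (0.84, adjusted p = 0.000911), *Dbp* (−0.53, adjusted p = 0.00749) and *Per2* (−0.59, adjusted p = 0.0421), and for 2956 of all genes in place of 15. With array weights it passed for 5 clock genes.

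Of 5 further genes of the loop that were analysed, 2 passed in naïve rats, both lower in WAR N. *Bhlhe41*, which encodes DEC2, a repressor that competes for E-boxes, read 9.53, 10.06, 10.001 and 9.92 in Wistar N and 8.84, 9.14, 8.70 and 9.29 in WAR N. All WAR N arrays were below all Wistar N arrays, by −0.89 (standard error 0.13, adjusted p = 0.00113 from limma), a size close to that of *Per3*. After sound its values were 9.00 and 9.21 in Wistar S and 9.11 to 9.36 in WAR S, a difference of 0.14, and its interaction of 1.03 had an adjusted p of 0.0657 in limma. *Tef*, which encodes a relative of DBP, read 9.38, 9.53, 9.46 and 9.31 in Wistar N and 9.09, 9.20, 9.10 and 9.10 in WAR N, a difference of −0.30 without overlap (standard error 0.070, adjusted p = 0.00955 from limma).

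*Bhlhe40* (DEC1, the relative of DEC2) was at 0.30 and *Npas2*, which can stand in for CLOCK, at 0.18 in naïve rats, and *Nfil3*, a repressor at D-boxes, at −0.18, none of them past the threshold (adjusted p = 0.314, 0.514 and 0.234 from limma). After sound none of the 5 passed, and *Npas2* had the largest difference, with 9.88 and 9.98 in Wistar S against 9.18 to 9.63 in WAR S and −0.54 on average (standard error 0.21, adjusted p = 0.534 from limma).

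Of 13 measured kinases, ubiquitin ligases and partners of the clock proteins, 2 passed in naïve rats, beside 20.9% of all genes, and 0 after sound or in the interaction. *Gsk3b*, a kinase that phosphorylates several clock proteins, was lower in WAR N by −0.35 (adjusted p = 0.00633 from limma), and *Wdr5*, a histone methylation factor found with PER proteins, by −0.40 (adjusted p = 0.00458). *Csnk1d* and *Csnk1e*, which encode the casein kinases that mark PER proteins for degradation, had differences of 0.33 and 0.47 that did not pass (adjusted p = 0.202 and 0.111).

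To ask whether arrays differ in clock phase, the mean log2 value of *Per1*, *Per2*, *Per3* and *Dbp* was subtracted from that of *Bmal1* in each array. The zero of this difference has no meaning, since it depends on the brightness of the probe sets, and only arrays normalized together can be compared. It is a description with no test, and its genes are the ones described above. In Wistar N it was −1.17, −0.25, −0.27 and 0.28 for replicates 1 to 4, and in WAR N −1.25, −1.10, −1.73 and −1.50. Wistar N replicate 1 lay among the WAR N arrays, and the other 3 Wistar N arrays were higher than every WAR N array, with high *Bmal1* and low *Per* genes and *Dbp*.

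The mean was −0.35 ± 0.60 (SD, n = 4) in Wistar N and −1.39 ± 0.28 (SD, n = 4) in WAR N, and the Wistar N mean without replicate 1 was −0.080. After sound it was −0.91 and −0.75 in Wistar S and −1.09, −1.16, −1.47, −1.94 and −1.24 in WAR S, a mean of −0.83 ± 0.11 (SD, n = 2) against −1.38 ± 0.34 (SD, n = 5). Every WAR S array lay below both Wistar S arrays. When *Per1* and *Per2*, which other signals also induce, were left out, the means were −1.25 in Wistar N and −2.32 in WAR N, and −1.77 in Wistar S and −2.32 in WAR S, so that WAR remained lower in both settings. *Bmal1* minus *Dbp* alone ran from −3.22 to −1.68 in Wistar N and from −3.29 to −2.93 in WAR N.

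Not every gene of the loop followed this axis. *Nr1d1*, which CLOCK and BMAL1 activate as they do *Dbp*, had a lower mean in WAR N where the means of *Dbp* and the *Per* genes were higher, and *Clock*, whose transcript cycles little in most tissues, was higher in WAR N where its partner *Bmal1* was lower. After sound *Dbp* did not follow the axis either. Its mean was slightly lower in WAR S than in Wistar S, as was that of *Bmal1*.

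**Figure D3:**
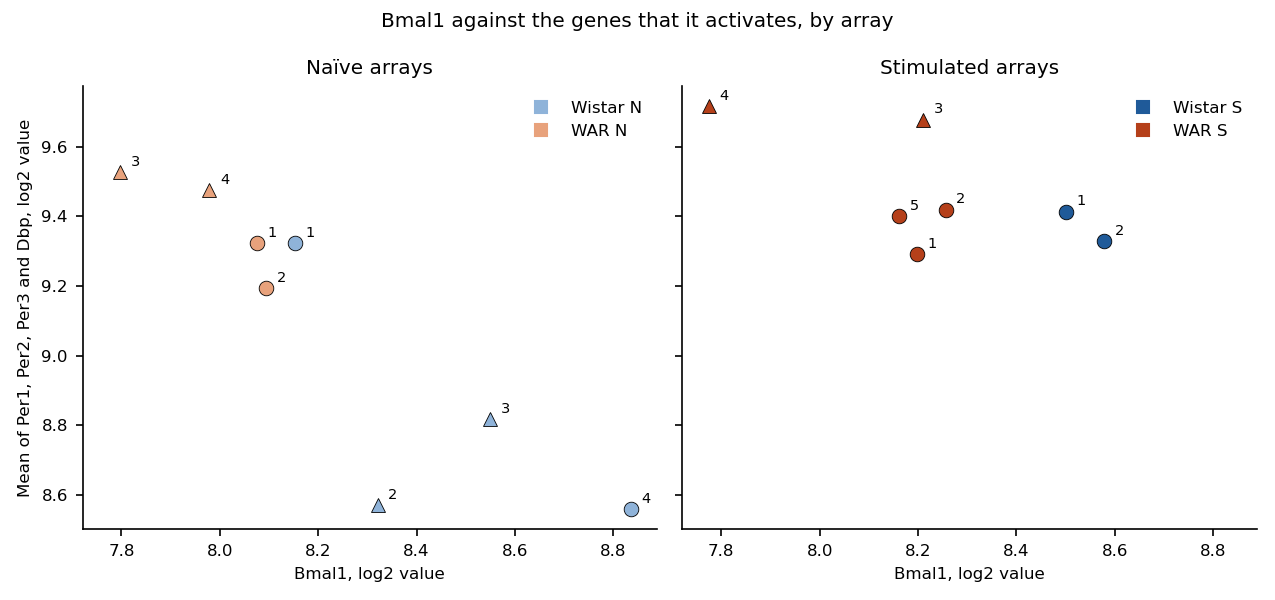
*Bmal1* (horizontal axis) against the mean of *Per1*, *Per2*, *Per3* and *Dbp* (vertical axis), both log2 values, in the 8 naïve arrays on the left and the 7 stimulated arrays on the right; numbers are replicates, circles label set 1 and triangles label set 2. Wistar N replicates 2, 3 and 4 stand at the lower right, with high *Bmal1* and low *Per* and *Dbp*, and Wistar N replicate 1 stands beside WAR N replicates 1 and 2.

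Correlations of *Bmal1* over arrays were computed with *Per1*, *Per2*, *Per3*, *Nr1d1*, *Nr1d2* and *Dbp*, in the naïve and in the stimulated arrays, 12 relations in all. By an exact permutation test of Pearson's r with Benjamini-Hochberg adjustment over the 12, 3 relations over the pooled strains passed, all of them negative. They were *Bmal1* with *Per1* (r = −0.84, adjusted exact permutation p = 0.0356) and with *Per2* (r = −0.86, adjusted p = 0.0356) over the naïve arrays, and with *Per3* (r = −0.85, adjusted p = 0.0476) over the stimulated arrays. Spearman's rho for these was −0.90, −0.86 and −0.74 (adjusted exact permutation p = 0.0548, 0.0643 and 0.207). The strains did not overlap in *Bmal1* in either setting, so these values hold the strain difference as well. Shares of all genes are given only after subtraction of the group means, over all arrays of both settings. There the r of *Bmal1* was −0.68 with *Per1*, −0.63 with *Per2* and −0.31 with *Per3*. At least this size was reached by 13.8%, 20.5% and 64.4% of all genes. The r was −0.74 with *Nr1d1* (8.02%), 0.069 with *Nr1d2* (92.8%) and −0.63 with *Dbp* (20.3%). Such sizes were thus not rare among all genes. With each value taken as its deviation from the strain mean, 0 of the 12 passed and 3 had an unadjusted p under 0.05. The largest in size were the r of *Bmal1* with *Dbp* over the stimulated arrays (−0.93, rho −0.41, adjusted exact permutation p = 0.127 for r and 0.729 for rho), with *Nr1d1* over the naïve arrays (−0.89, rho −0.86, adjusted p = 0.0723 and 0.0643) and with *Per1* over the naïve arrays (−0.80, rho −0.90, adjusted p = 0.100 and 0.0548).

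Without Wistar N replicate 1 the r of *Bmal1* in naïve arrays stayed about as large with *Per1* (−0.87) and *Per2* (−0.87) and was larger in size with *Dbp* (−0.82, from −0.73) and *Nr1d2* (−0.76, from −0.54). With 1 array fewer 0 of the 12 passed by r (lowest adjusted exact permutation p = 0.0605) and *Per1* passed by rho (−0.96, adjusted p = 0.0333). Without the 2 arrays farthest from the median of *Bmal1*, r was −0.73 with *Per1* and −0.91 with *Per2* in naïve arrays and −0.86 with *Per3* in stimulated arrays, and 0 passed. In stimulated arrays these were Wistar S replicate 2 and WAR S replicate 4, the latter with the lowest *Bmal1* (7.77) and the highest *Dbp* (11.36). Without them r with *Dbp* turned from −0.42 to 0.95. The sign also turned for *Nr1d1* in both settings and for *Per1* in stimulated arrays.

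*Per1* and *Per2* split the WAR arrays along the running numbers in their labels, with and without sound. By these numbers part of the arrays, here label set 1, form a run without repeats, and the others are label set 2; no source names the sets as batches. In WAR N, *Per1* was 8.15 and 8.04 in label set 1 (replicates 1 and 2) and 8.78 and 8.87 in label set 2 (replicates 3 and 4). In WAR S it was 8.16, 8.43 and 8.46 in label set 1 (replicates 1, 2 and 5) and 9.21 and 9.09 in label set 2 (replicates 3 and 4). Label set 2 minus label set 1 was 0.74 in WAR N and 0.80 in WAR S, sizes reached by 0.345% and 0.310% of all genes, and −0.24 in Wistar N, a size reached by 30.5%.

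*Per2* and *Nr1d1* also did not overlap between the label sets in both WAR groups, with differences of 0.33 and 0.21 in WAR N and 0.34 and 0.25 in WAR S. *Per3* and *Bmal1* did not overlap in WAR N alone, and *Cry1*, *Cry2* and *Nr1d2* in Wistar N alone. Over all genes the label sets did not overlap for 46.5% in WAR N, 26.5% in WAR S and 26.7% in Wistar N, so a lack of overlap was not rare. *Per3*, *Clock* and *Dbp* differed between the label sets by at most 0.14 in size in WAR N and WAR S.

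The same arrays were high in the means of 2 lists of induced genes. The mean log2 value of 10 genes induced by glucocorticoids was 9.60 and 9.68 in WAR N replicates 3 and 4, against 9.09 and 9.21 in replicates 1 and 2, and 9.86 and 9.87 in WAR S replicates 3 and 4, against 9.35 to 9.50 in the others. *Sgk1*, *Pdk4*, *Zbtb16*, *Errfi1* and *Nfkbia* were higher in replicates 3 and 4 of both WAR groups, and the other members did not all follow. *Fkbp5* was 8.04 and 7.96 in WAR N replicates 3 and 4, against 7.92 and 8.39. *Mt2A* was lower in WAR S replicates 3 and 4, at 13.06 and 13.13 against 13.26 to 13.54. The mean of 10 genes induced by neuronal activity was 8.54 and 8.50 in WAR S replicates 3 and 4, against 7.69 to 7.78 in the others, and 7.52 and 7.62 in WAR N replicates 3 and 4, against 7.39 and 7.32. Wistar N replicate 1, with the highest *Per1* of its group, had a mean of 8.86 for the first list, inside the range of the other Wistar N arrays (8.58 to 8.96), and of 7.68 for the second, the highest of its group. The part of hormone, activity or label set in the *Per1* values was not tested.

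**Figure D4:**
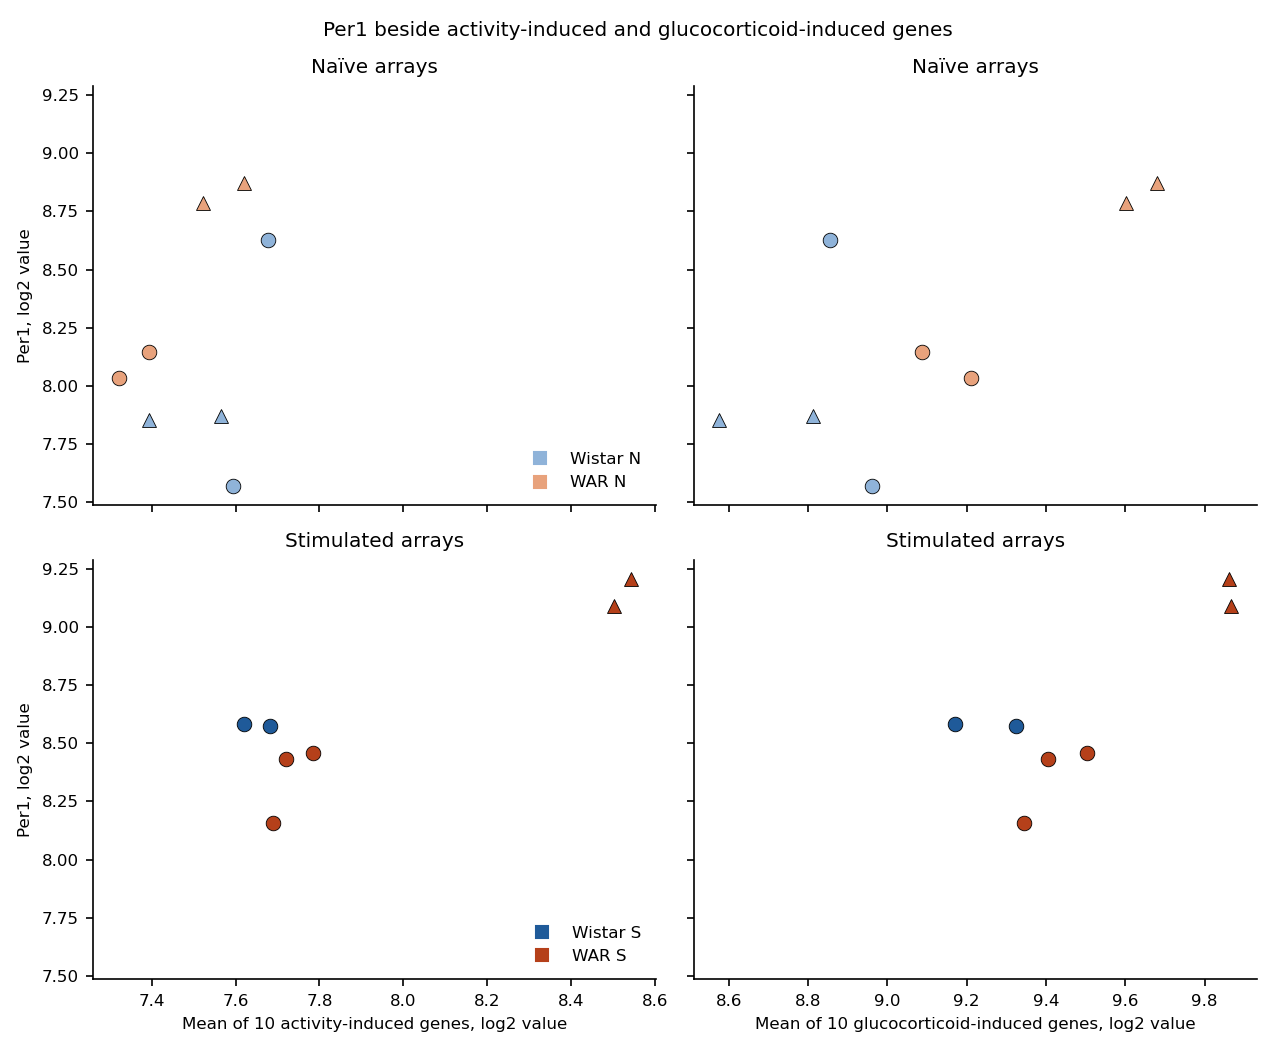
*Per1* (vertical axis) against the mean of 10 activity-induced genes (left) or 10 glucocorticoid-induced genes (right), all log2 values, in naïve arrays (top) and stimulated arrays (bottom); circles are label set 1, triangles label set 2. The WAR triangles hold the highest *Per1* of each setting, 8.78 and 8.87 above and 9.21 and 9.09 below.

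Between the naïve strains the first of these lists had 2 of 10 genes past the threshold in limma, beside 20.9% of all genes, *Mt2A*, a metallothionein (1.996, adjusted p = 0.00260), and *Sult1a1*, a sulfotransferase (0.89, adjusted p = 0.00145), both higher in WAR N, with a median of 0.38, and the second had 0 of 10, with a median of −0.11. Between the stimulated strains 0 of 10 passed in both lists, with medians of 0.35 and 0.42. Within label set 1 the naïve difference of *Per1* was −0.0079 and the stimulated one −0.23. Within label set 2, which has no Wistar S array, the naïve difference was 0.97 (adjusted p = 0.00132 from limma). *Per3* kept its naïve difference in both sets, at 0.84 in label set 1 (adjusted p = 0.0449 from limma).

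Genes with a pattern most like *Bmal1* and *Dbp* were sought over the 15 arrays after subtraction of the 4 group means, as a description of arrays that share a normalization within each setting. The highest Pearson r with *Bmal1* were those of *Anapc5* (0.96), *Chd8* (0.95), *Otud7b* (0.95), *Acap2* (0.94) and *Gen1* (0.94), and the lowest those of *Pou2f2* (−0.97) and *Isca2* (−0.95). An r of at least 0.8 in size was found for 3.39% of all genes, and for 2.66% without Wistar N replicate 1. With *Dbp* the highest were *Pcdhb6* (0.98), *Jmjd8* (0.98), *Coro1c* (0.97), *Lypd6* (0.97) and *Lypd1* (0.97), and the lowest *Sacm1l* (−0.97) and *Thoc7* (−0.97). For *Dbp* 12.5% of all genes had an r of at least 0.8 in size, and 0.352% without Wistar N replicate 1, so the number of genes this like *Dbp* fell without that array, while the 7 named genes kept an r of 0.81 to 0.90 in size. Among the clock genes themselves, *Per1* and *Per2* had an r of 0.89 (0.86 without Wistar N replicate 1).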

How the data were processed

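IC RNA from 15 samples was hybridized to Affymetrix Rat Gene 1.0 ST arrays, whose own labels gave the groups. The log2 values deposited by the authors come from RMA (background correction, quantile normalization, 1 summary per probe set); its version and the genome build are not given in the sources used here. Signal over background cannot be had from such values, and precision is limited by how few arrays there are.

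The 14506 genes were named through the platform annotation, from 15310 probe sets with 1 symbol (323 with several and 13581 with none were left out), and the brightest probe set over all arrays was kept. Of these genes 14480 matched the GRCr8 gene table. Strains were compared with lmFit and eBayes of limma 3.58.1 in R 4.3.3 (all 15 arrays in 1 model with 4 group means, Benjamini-Hochberg adjustment over all genes, threshold 0.05), tested on simulated data. SAM, which the methods use, was not run. Correlations used NumPy 2.4.6. Alternatives changed the model, arrays, scaling, filter and threshold. The clock genes and the lists were chosen with earlier results of these data known. All clock genes are named; of other lists, those past the threshold, at most 4 others with the smallest p, and for *Csnk1d* and *Csnk1e* a choice made after their values were seen. The labels call arrays biological replicates, and whether each is 1 rat is not stated, so the p-values measure only the spread between these samples.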

Additional observations from a re-analysis of the deposited data

Results flagged for a closer look

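In 5 of 48 groups of 4 or 5 arrays that were examined, for the clock genes, 5 further genes of the loop and *Bmal1* minus the mean of the *Per* genes and *Dbp*, 1 array lay far from the others by the ratio of its gap to the range of the group. Chance gives such a gap in about 1 of 20 groups. For *Cry2*, WAR N replicate 3 was lowest at 9.65, with the others at 9.90 to 9.93 (ratio 0.898), and WAR S replicate 4 was lowest at 9.88, with the others at 10.09 to 10.12 (ratio 0.870). WAR S replicate 4 was also lowest for *Bmal1*, at 7.77 with the others at 8.16 to 8.26 (ratio 0.804), and highest for *Dbp*, at 11.36 with the others at 11.10 to 11.15 (ratio 0.804). For *Tef*, WAR N replicate 2 was highest at 9.20, with the others at 9.09 to 9.10 (ratio 0.896). Both groups in which *Cry2* was low had their lowest *Bmal1* in the same array.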

How the results depend on the processing

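In naïve rats the count of 7 clock genes past the threshold ran from 3 to 9 when 1 array was left out, and was 1 when the model held only the naïve groups (879 of all genes in place of 3037), 1 within label set 1 (217 of all genes) and 0 at a fold of at least 2 with an unadjusted p of at most 0.05. In stimulated rats the count of 0 became 2 with only the compared groups (274 of all genes in place of 60) and 3 with array weights (1433), and stayed at 0 without any single array. The interaction count of 0 became 5 with array weights (3353 of all genes in place of 15) and ran from 0 to 4 when 1 array was left out. For fits with 1 array left out, counts over all genes are given above only without Wistar N replicate 1. The 3 pooled correlations became 0 with deviations from strain means, 0 without the 2 farthest arrays and 0 without Wistar N replicate 1, where the r with *Per1* and *Per2* stayed at −0.87 and −0.87 over 1 array fewer. With *Per1* and *Per2* left out, the *Bmal1* difference moved to −1.252 in Wistar N, −2.324 in WAR N, −1.768 in Wistar S and −2.324 in WAR S, an alternative chosen after seeing the data, as were its cyclic loess and both alternatives of phase and correlation without Wistar N replicate 1. The cause of these shifts was not tested.

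Signs turned in differences near 0, in correlations, and for *Per1* between the naïve strains (0.48 over all arrays). Between the stimulated strains *Per1* was −0.092 with the label set as a block, −0.229 within label set 1, −0.045 with array weights, and −0.044 and −0.014 without WAR S replicates 3 and 4 (range with 1 array left out −0.044 to 0.218). *Nr1d1* was −0.043, −0.083 and −0.017 under the first 3 of these, and −0.014, −0.017 and −0.025 without WAR S replicates 2, 3 and 4 (range −0.025 to 0.0821). Within label set 1, *Per1* was −0.0079 between the naïve strains and the interaction of *Nr1d2* −0.098; the latter was −0.044 without Wistar N replicate 3 (range −0.044 to 0.0965), and that of *Bmal1* −0.065 without Wistar N replicate 4 and −0.0036 without WAR N replicate 3 (range −0.065 to 0.163). Without the 2 farthest arrays the r of *Bmal1* was 0.333 with *Nr1d1* in naïve arrays, and 0.033, 0.276 and 0.951 with *Per1*, *Nr1d1* and *Dbp* in stimulated ones, and with deviations from strain means it was 0.049 and 0.194 with *Nr1d2*.

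Replicate numbers did not pair the samples (correlations of deviations −0.31 to 0.060). With the replicate number as a block, 5 clock genes passed between the naïve strains (2490 of all genes), *Cry1* and *Bmal1* not among them (adjusted p = 0.0597 and 0.0677 from limma), 0 between the stimulated strains (16 of all genes) and 0 in the interaction (0 of all genes), and between the stimulated strains *Per1* was −0.032 and *Dbp* 0.017. A second probe set could not be tried, since each clock gene has 1. No scaling moved the median of all genes by 0.1.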
